A study of Mus musculus with 4 samples.

Results

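The purinergic genes described here are 10 genes of the 54752 in the count table. They are the ATP-gated channel genes P2rx1, P2rx4 and P2rx7, the nucleotide receptor genes P2ry1, P2ry2, P2ry6, P2ry12 and P2ry13, the adenosine receptor gene Adora2a, and Entpd1, which encodes the ectonucleotidase CD39. They were chosen by symbol, with earlier results of these data known. All 10 were found once, and all 10 passed the filter on low counts that left 16498 genes to test. RNA came from mouse abdominal aortic grafts taken 4 weeks after transplantation. The ALLO group held 2 libraries of allografts undergoing chronic rejection, per the series title, and the ISO group held 2 libraries of grafts whose name the labels do not spell out. The sources used here give no strain, sex, age, number of animals or pooling. The spread between libraries, on which every p-value rests, may therefore be in part technical.

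Cells release ATP and other nucleotides when they are stressed or die. P2X receptors are cation channels opened by ATP, and P2Y receptors are G protein-coupled receptors for ATP, ADP, UTP or UDP. CD39 on the cell surface cuts ATP and ADP to AMP, CD73 turns AMP into adenosine, and adenosine acts on its own receptors, among which the product of Adora2a dampens leukocyte activation. In vessels these receptors are known from smooth muscle, endothelium, platelets and macrophages.

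The libraries held 17532344 to 20194854 counts. By sex-linked transcripts ISO replicate 1 stood apart: Xist, from the inactive X, had 10647 counts there and no more than 8 elsewhere, and the Y-linked Ddx3y had 0 counts there and 2105 or more elsewhere. Smooth muscle markers, the defining genes of the aortic media, were present in all libraries, with 8 of 8 lower in ALLO and summed levels of 1258 and 2549 CPM (counts scaled to library size and composition) in ALLO replicates 1 and 2, against 29897 and 30288 CPM in ISO replicates 1 and 2. Of 8 macrophage markers 7 were higher in ALLO, with summed levels of 7765 and 5512 CPM in ALLO against 813 and 351 CPM in ISO. Of the other lists, 5 of 5 NK cell, 4 of 6 dendritic cell, 4 of 5 Schwann cell, 2 of 5 neutrophil, 1 of 6 B cell, 1 of 4 mast cell, 1 of 4 adipocyte and 1 of 5 red cell markers tested were higher, and 1 of 7 fibroblast markers was lower. In whole tissue, fewer cells of a type and less RNA per cell cannot be told apart.

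Of the 10 genes, 5 were higher in ALLO grafts, 2 were lower and 3 did not pass an adjusted p of 0.05. P2rx4, P2rx7, P2ry6, P2ry12 and P2ry13 rose by 2.74- to 9.52-fold, and P2ry2 and Entpd1 fell. The same threshold called 33.1% of all genes tested, 18.4% as higher and 14.8% as lower, beside 7 of 10 here. It split into 3032 higher and 2437 lower genes, or 3546 and 1867 when scaled by library size alone, a scaling that moved the median of all genes to 0.22 on the log2 scale and left the 7 calls as they were. The median log2 change of the 10 was 1.33, against 0.025 over all genes tested. Libraries of the groups did not overlap for 9 of the 10 genes, P2rx1 being the exception, and they did not overlap for 72.5% of all genes tested. Because the 10 genes were chosen with earlier results of these data known, these contrasts describe the set and do not test it. Changes are given as the log2 of ALLO over ISO with the standard error of edgeR's quasi-likelihood fit.

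**Figure D1:**
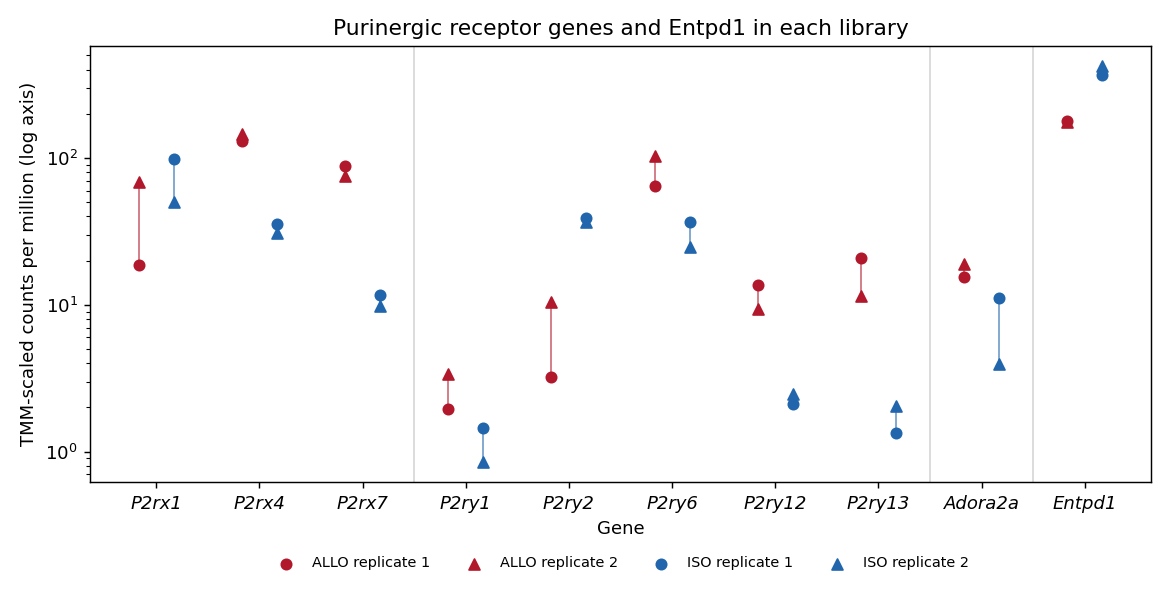
TMM-scaled CPM (log axis) of the 10 genes in each library, with ALLO libraries left of ISO libraries and a line joining the 2 libraries of a group. P2rx7 sits at 75.6 to 88.7 CPM in ALLO and 9.78 to 11.6 CPM in ISO, Entpd1 is lower in both ALLO libraries, and the groups overlap for P2rx1.

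Among the P2X genes, the pair that rose was P2rx7 and P2rx4. P2rx7 encodes the channel through which high ATP sets off the NLRP3 inflammasome in macrophages (ENSMUSG00000029468.17, chromosome 5, 122643911 to 122691432, plus strand, mm10). It had 88.7 and 75.6 CPM in ALLO replicates 1 and 2, against 11.6 and 9.78 CPM in ISO replicates 1 and 2. Every ALLO library was far above every ISO library. The change was 2.94 ± 0.21 on the log2 scale, 7.69-fold (edgeR adjusted p = 0.00284), the smallest adjusted p of the 10 genes. It stayed between 2.83 and 3.07 when any 1 library was left out.

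P2rx4 encodes an ATP channel of macrophages, endothelium and microglia that also sits in lysosomes (ENSMUSG00000029470.15, chromosome 5, 122707544 to 122729738, plus strand). Its levels were 130 and 146 CPM in ALLO, against 35.3 and 31.0 CPM in ISO. The groups were well apart, with ALLO replicate 2 slightly above ALLO replicate 1. P2rx4 rose 4.16-fold (log2 change 2.06 ± 0.19, edgeR adjusted p = 0.00395), and by 1.96 to 2.17 when any 1 library was left out. The ratio of P2rx7 to P2rx4 in CPM was 0.682 and 0.519 in ALLO and 0.328 and 0.316 in ISO.

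P2rx7 and P2rx4 lie on the same strand, 16.1 kb apart with 1 annotated gene between them. Bases upstream of both are shown because these neighbours rose together, from RefSeq on GRCm38.p6 (the assembly that mm10 names). The P2rx7 stretch is chr5:122643677-122643910 and the P2rx4 stretch chr5:122707294-122707543, both on the plus strand, 5′ to 3′ and ending just before the deposited gene start. Capitals mark a match to the AP-1 motif TGANTCA.
P2rx7: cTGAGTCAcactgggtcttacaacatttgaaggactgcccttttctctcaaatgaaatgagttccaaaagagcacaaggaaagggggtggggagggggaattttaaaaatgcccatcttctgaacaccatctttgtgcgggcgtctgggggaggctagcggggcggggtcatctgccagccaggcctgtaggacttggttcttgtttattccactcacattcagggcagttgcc
P2rx4: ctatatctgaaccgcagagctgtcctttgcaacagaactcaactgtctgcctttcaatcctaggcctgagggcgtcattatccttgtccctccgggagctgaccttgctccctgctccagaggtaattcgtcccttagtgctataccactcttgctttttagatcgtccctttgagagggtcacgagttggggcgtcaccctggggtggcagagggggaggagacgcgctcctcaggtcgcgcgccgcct
The match lies 249 bases before the RefSeq start of P2rx7. TGANTCA, searched on both strands, was in 6.75% of the 32851 windows of 250 bases upstream of RefSeq starts. A match describes the letters and does not show that a factor binds.

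P2rx1, the ATP channel of arterial smooth muscle and platelets (ENSMUSG00000020787.14, chromosome 11, 72999103 to 73015200, plus strand), varied within both groups. It had 18.7 and 68.6 CPM in ALLO, against 98.6 and 49.9 CPM in ISO. ALLO replicate 2 lay between the ISO libraries, and ALLO replicate 1 was lowest of all. The log2 change was -0.77 ± 0.66 (edgeR adjusted p = 0.425). Leaving out ALLO replicate 2 gave -1.97 (edgeR adjusted p = 0.0568), and leaving out ALLO replicate 1 gave -0.08 (edgeR adjusted p = 0.916). ALLO replicate 2 had 3.68 times as much P2rx1 as ALLO replicate 1 and 2.03 times as much of the summed smooth muscle markers. By marker gene that ratio ran from 1.11 for Myocd and 1.12 for Synpo2 to 2.38 for Acta2. Acta2 held 645 and 1539 CPM of the sums in ALLO replicates 1 and 2. ISO replicate 1 had 1.98 times as much P2rx1 as ISO replicate 2, with summed smooth muscle markers at 29897 and 30288 CPM in these libraries. The part of smooth muscle in these differences was not tested. None of the 7 platelet and megakaryocyte markers tested passed, with summed levels of 66.5 and 59.8 CPM in ALLO against 54.7 and 31.0 CPM in ISO, and 1 further marker, Gp1bb, was at 0 in all libraries.

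Of the 5 P2Y genes, 3 rose, 1 fell and 1 did not pass. P2ry12 and P2ry13 encode ADP receptors coupled to Gi, P2Y12 being the platelet receptor blocked by clopidogrel and a marker of microglia. P2ry12 (ENSMUSG00000036353.13, chromosome 3, 59216272 to 59262871, minus strand) had 13.7 and 9.35 CPM in ALLO, against 2.10 and 2.47 CPM in ISO. P2ry13 (ENSMUSG00000036362.2, chromosome 3, 59207892 to 59210882, minus strand) had 21.0 and 11.5 CPM in ALLO, against 1.34 and 2.05 CPM in ISO. Both genes were higher in ALLO replicate 1 than in ALLO replicate 2 and lower in ISO replicate 1 than in ISO replicate 2, and neither had overlapping groups.

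P2ry12 rose 5.01-fold (log2 change 2.33 ± 0.37, edgeR adjusted p = 0.0112). P2ry13 rose 9.52-fold, the largest fold of the 10 (log2 change 3.25 ± 0.47, edgeR adjusted p = 0.00872), and the fold ranged between 6.87 and 12.4 when 1 library was left out. The ratio of P2ry12 to P2ry13 in CPM was 0.652 and 0.814 in ALLO and 1.57 and 1.21 in ISO. Platelet markers, given above, did not pass, and macrophage markers were 11.4-fold higher in summed CPM. Lyz2, 16.4-fold higher, held most of that sum in ALLO. The part of either cell type in the P2ry12 and P2ry13 changes was not tested.

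The genes P2ry12 and P2ry13 are 5.4 kb apart with no annotated gene between them, and both lie inside the Mediator gene Med12l, which runs on the opposite strand. Exons of P2ry13 shared no base with another gene and those of P2ry12 shared 0.4% of their bases with Med12l. The stretch upstream of P2ry13, chr3:59210883-59211132 on the minus strand, is shown as the neighbourhood of the gene with the largest fold, 5′ to 3′, with no capitals because none of the motifs searched was in it.
P2ry13: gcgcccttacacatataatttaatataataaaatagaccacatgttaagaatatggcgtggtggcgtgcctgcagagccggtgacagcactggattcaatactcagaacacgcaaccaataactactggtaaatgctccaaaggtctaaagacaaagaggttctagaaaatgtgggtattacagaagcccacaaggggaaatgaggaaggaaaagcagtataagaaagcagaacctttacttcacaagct
The ETS-type motif AGGAAGT, of the kind bound by PU.1, was found on either strand in 7.69% of all windows and in that of P2ry12, 52 bases before its RefSeq start. The NF-kappaB consensus was in 7.25% of all windows and also in that of P2ry12, 51 bases before the start and overlapping the ETS-type match. That window lies wholly over bases annotated as exonic outside P2ry12, and which gene they belong to was not recorded. The CArG box, which binds serum response factor, was in 1.47% of all windows and in none of the 8 windows of these genes. P2ry6 and Adora2a had no window.

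P2ry6 encodes the UDP receptor, known for phagocytosis and cytokine release in macrophages and for constriction in arteries (ENSMUSG00000048779.5, chromosome 7, 100937630 to 100974649, minus strand). It had 64.7 and 103 CPM in ALLO, against 36.9 and 24.6 CPM in ISO. Both ALLO libraries were above both ISO libraries, with the wider spread in ALLO. P2ry6 rose 2.74-fold (log2 change 1.45 ± 0.33, edgeR adjusted p = 0.0266). The call was lost without ALLO replicate 2 (log2 change 1.10, edgeR adjusted p = 0.0635). Macrophage markers shared the group direction of P2rx4, P2rx7 and P2ry6, 7 of 8 higher with a median log2 change of 4.05. None was at 0 in all libraries. Their sum was 7765 CPM in ALLO replicate 1 and 5512 CPM in ALLO replicate 2, of which Lyz2 alone held 5461 and 3654 CPM. The ratio of ALLO replicate 1 to ALLO replicate 2 was 1.49 for Lyz2, 1.83 for Adgre1, 1.59 for Mrc1 and 1.23 for Cd68. It was 1.06 for Csf1r, 1.04 for Cx3cr1, 1 for Mertk and 0.978 for Fcgr1. P2rx7, like the sum, was lower in ALLO replicate 2, while P2rx4 and P2ry6 were higher there. The ratio of ISO replicate 1 to ISO replicate 2 was 2.32 for the marker sum, 1.14 for P2rx4, 1.18 for P2rx7 and 1.5 for P2ry6. By marker gene it ran from 1.02 for Mertk to 4.67 for Adgre1, with Lyz2 at 4.34. The part of macrophages in these changes was not tested.

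P2ry2 encodes the receptor for ATP and UTP of endothelium and smooth muscle (ENSMUSG00000032860.5, chromosome 7, 100996568 to 101012866, minus strand). It fell to 3.24 and 10.5 CPM in ALLO, against 38.8 and 36.9 CPM in ISO. The ISO libraries were close together, whereas ALLO replicate 2 had 3.24 times the level of ALLO replicate 1. The log2 change of P2ry2 was -2.46 ± 0.57 (edgeR adjusted p = 0.0286), a 5.5-fold lower level. The fold was 11.5 with ALLO replicate 2 left out and 3.53 with ALLO replicate 1 left out. Its neighbour P2ry6 lies 21.9 kb away on the same strand with no annotated gene between, and the pair went in opposite directions. The ratio of P2ry6 to P2ry2 in CPM was 20.0 and 9.86 in ALLO and 0.952 and 0.665 in ISO.

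Bases upstream of P2ry2 are shown as those of the receptor gene that fell. The window is chr7:101012054-101012303 on the minus strand, from RefSeq on GRCm38.p6, 5′ to 3′. It ends at the nearest RefSeq start, 813 bases inside the upstream end of the deposited gene, and held none of the motifs.
P2ry2: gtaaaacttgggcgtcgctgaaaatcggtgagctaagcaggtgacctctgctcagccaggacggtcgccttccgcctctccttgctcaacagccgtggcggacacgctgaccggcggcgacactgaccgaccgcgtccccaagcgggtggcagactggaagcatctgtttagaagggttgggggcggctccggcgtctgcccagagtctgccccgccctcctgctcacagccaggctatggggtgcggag
Smooth muscle markers moved with P2ry2, 8 of 8 lower with a median log2 change of -4.18, and 3 of 8 endothelial markers were lower and 1 higher, at summed levels of 737 and 849 CPM in ALLO against 1632 and 1638 CPM in ISO. No marker of either list was at 0 in all libraries. Their part in the P2ry2 change was not tested.

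P2ry1, the ADP receptor that starts platelet shape change (ENSMUSG00000027765.6, chromosome 3, 61002795 to 61008982, plus strand), had the lowest mean level of the 10 genes in each group. It had 38 and 75 counts in ALLO, against 25 and 14 counts in ISO, or 1.95 and 3.40 CPM against 1.46 and 0.845 CPM. The groups did not overlap but lay close together. The log2 change of 1.21 ± 0.60 did not pass (edgeR adjusted p = 0.185). An antisense gene model, Gm37035, covers 23.1% of its exonic bases, and whether reads were counted by strand is not stated, which leaves its counts uncertain.

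Adora2a, the gene of the adenosine receptor that raises cyclic AMP in leukocytes and vessels (ENSMUSG00000020178.6, chromosome 10, 75316877 to 75334784, plus strand), had 15.6 and 19.0 CPM in ALLO, against 11.1 and 3.98 CPM in ISO. ISO replicate 1 was 2.79 times ISO replicate 2 and lay nearer to the ALLO libraries. With all libraries the log2 change of 1.20 ± 0.52 did not pass (edgeR adjusted p = 0.141). Without ISO replicate 1 it was 2.12, or 4.34-fold, and passed (edgeR adjusted p = 0.0091). Summed T cell markers, 8 of 8 higher in ALLO and none at 0, were 297 and 281 CPM in ALLO against 9.59 and 3.74 CPM in ISO, with ISO replicate 1 at 2.56 times ISO replicate 2. The same ratio was 2.32 for macrophage, 2.09 for dendritic cell, 9.87 for neutrophil and 94.1 for B cell markers. It was 1.02 for regulatory T cell, 0.886 for mast cell and 0.347 for NK cell markers, sums that rest on few genes. Ikzf2 (0.835) held most of the regulatory T cell sum in ISO, while Il2ra, Ctla4 and Tnfrsf18 were at 1.94, 8.72 and 1.45. Foxp3 had 6 and 0 counts in ISO. Among mast cell genes Kit was at 0.412 and Ms4a2, with 2 and 4 counts, at 0.484. Cpa3, Tpsb2 and Mcpt4 were at 1.61, 1.31 and 4.52. No NK cell marker had more than 35 counts in an ISO library. The part of any of these cell types in Adora2a was not tested.

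Entpd1, the CD39 gene (ENSMUSG00000048120.16, chromosome 19, 40612366 to 40741602, plus strand), fell to 180 and 175 CPM in ALLO, against 369 and 425 CPM in ISO. The ALLO libraries were nearly alike and both lay under the ISO libraries. Means were 178 ± 3.56 CPM in ALLO and 397 ± 39.6 CPM in ISO (SD, n = 2 each). The log2 change was -1.16 ± 0.21 (edgeR adjusted p = 0.0147), a 2.23-fold lower level. With ISO replicate 2 left out the change was -1.05 and no longer passed (edgeR adjusted p = 0.0765). CD39 is known from endothelium, smooth muscle, macrophages and regulatory T cells. Endothelial markers had summed levels of 737 and 849 CPM in ALLO against 1632 and 1638 CPM in ISO. Pecam1 and Vwf, both lower, held most of these sums, while 3 of 8 endothelial markers were lower, 1 higher and 4 not passed. Smooth muscle and macrophage markers moved as given above. All 5 regulatory T cell markers were higher, at 94.3 and 101 CPM summed in ALLO against 10.5 and 10.3 CPM in ISO, with none at 0. The part of each cell type in the Entpd1 change was not tested.

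**Figure D2:**
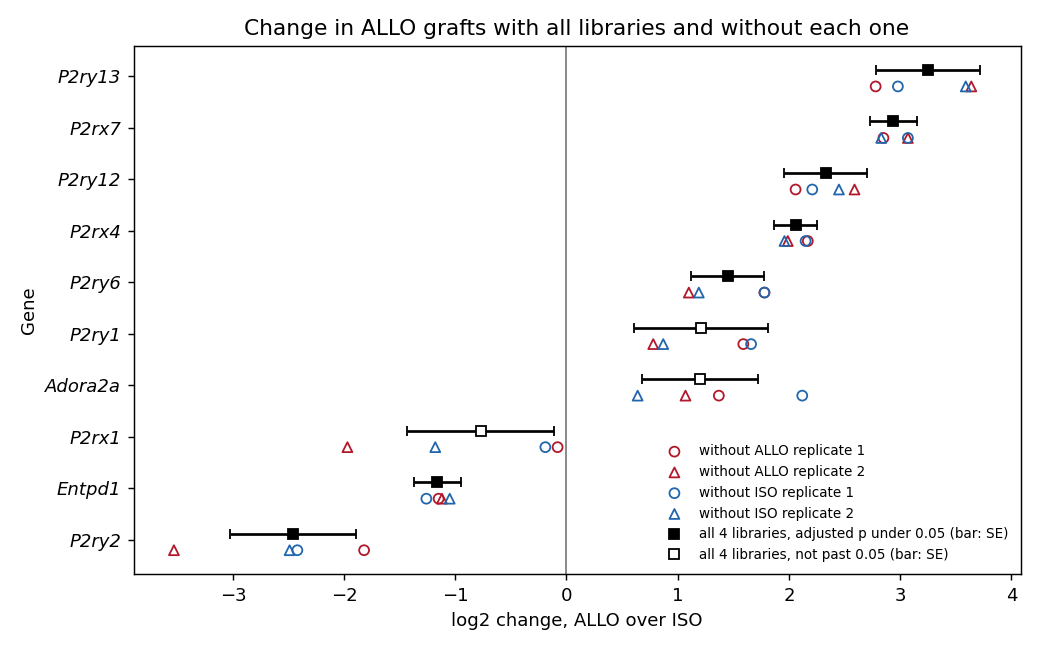
Log2 change of each gene in ALLO over ISO, as squares with standard errors for all 4 libraries and as open circles and triangles without each library in turn. P2rx7 and P2rx4 keep nearly the same change, while P2ry2 ranges from -3.53 to -1.82, P2rx1 from -1.97 to -0.08 and Adora2a from 0.64 to 2.12.

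Per unit of gene length, Entpd1 RNA had the highest mean level of the 10 in both groups, though in ALLO replicate 2 P2ry6 was above it, at 113 TPM against 99.0 TPM. It made up 28.0% and 21.7% of their summed TPM, a read count scaled by gene length and library total, in ALLO, against 47.7% and 62.2% in ISO. In ALLO the order of mean TPM was Entpd1, P2ry6, P2rx4, P2rx1, P2rx7, P2ry13, Adora2a, P2ry12, P2ry2 and P2ry1. Libraries of P2rx7 and P2ry13, and of P2ry12 and P2ry2, did not overlap, and all other neighbours in that order did. In ISO the order was Entpd1, P2rx1, P2ry6, P2ry2, P2rx4, Adora2a, P2rx7, P2ry12, P2ry13 and P2ry1. There the overlapping neighbours were P2ry6 with P2ry2, Adora2a with P2rx7, and P2ry12 with P2ry13. P2ry1 was last in both groups.

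Shares within the 9 receptor genes show how the make-up differed. P2rx1 held 8.57% and 23.1% of receptor TPM in ALLO, against 51.8% and 41.1% in ISO. P2ry2 held 0.994% and 2.36% in ALLO, against 13.6% and 20.3% in ISO. Both shares were lower in each ALLO library than in each ISO library. For P2rx1 this was not so of the level itself, which was 16.5 and 82.5 TPM in ALLO against 106 and 60.8 TPM in ISO, while the receptor genes summed to 192 and 357 TPM in ALLO against 204 and 148 TPM in ISO. P2rx4 took 22.3% and 18.3% in ALLO, against 6.93% and 9.53% in ISO. P2rx7 took 17.9% and 11.2% in ALLO, against 2.67% and 3.54% in ISO. P2ry6 took 27.0% and 31.6% in ALLO, against 17.6% and 18.4% in ISO, and was the receptor gene with the largest share in both ALLO libraries. In both ISO libraries that gene was P2rx1. These shares carry no test.

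**Figure D3:**
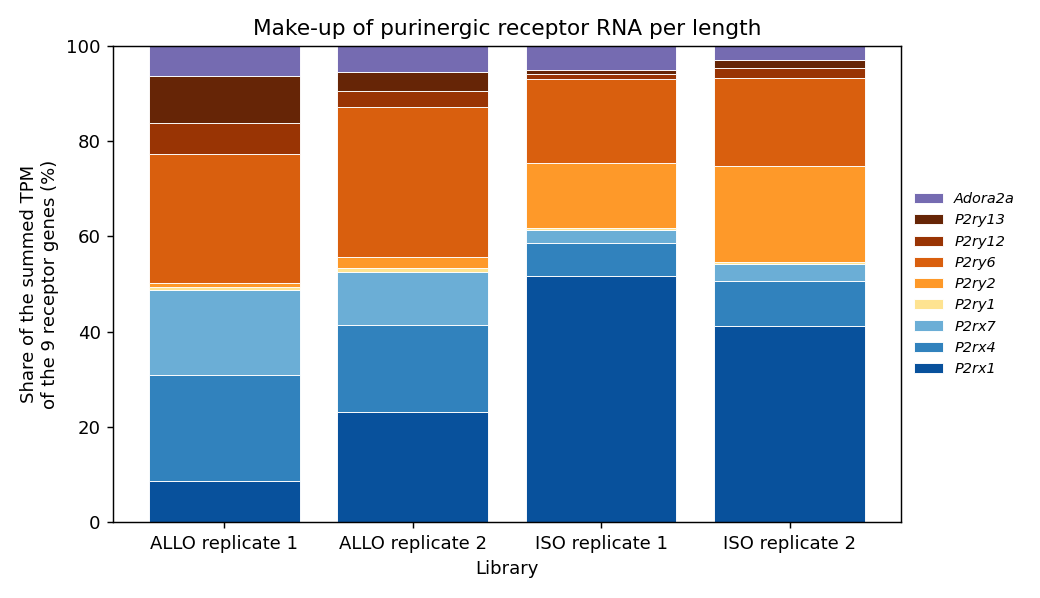
Share of each receptor gene in the summed TPM of the 9 receptor genes, in percent, 1 bar per library with ALLO left of ISO. P2rx1 and P2ry2 fill more of the ISO bars, and P2rx4, P2rx7 and P2ry6 more of the ALLO bars.

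Genes with the most similar pattern over the 4 libraries were sought by Euclidean distance of centred log2 CPM. Nearest to P2rx7 were Rel (distance 0.12), Kif20a (0.14) and Aph1c (0.15), and nearest to P2ry12 were Dtx3l, Slc38a6 and Pde7b (0.10 each). Rhoj, Pdp2 and Tmem65 (0.05 each) were nearest to Entpd1. Rasgef1a (0.26), Sox17 (0.28) and Sncg (0.32) were nearest to P2rx1. Within a distance of 0.5 there were 164 genes for P2rx7, 154 for P2ry12, 1090 for Entpd1 and 37 for P2rx1, so the order among close genes over 4 libraries carries little weight.

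Of 49 genes on lists around purinergic signalling, called the other purinergic genes below, 40 were tested. The 49 include P2ry10 and P2ry10b, of which P2ry10 is a lysophosphatidylserine receptor gene, and Dpp4, tied to adenosine deaminase in humans. Of the 40 tested, 21 were higher, 6 lower and 13 not passed (33.1% of all genes passed). Their median log2 change was 1.71. The lists were likewise chosen with earlier results of these data known. Of the other P2X genes, P2rx5, an ATP channel subunit gene, fell to 2.21 and 7.13 CPM in ALLO, against 53.7 and 66.6 CPM in ISO. It was 12.8-fold lower (edgeR adjusted p = 0.0109). Leaving out ALLO replicate 2 made this 26.9-fold, and leaving out ALLO replicate 1 made it 8.27-fold. P2rx6 had 1.34 and 0.908 CPM in ALLO against 3.16 and 2.90 CPM in ISO and did not pass (edgeR adjusted p = 0.089), with 13.9% of its exonic bases under the antisense gene Slc7a4. P2rx2 and P2rx3 had at most 17 counts in a library and were not tested.

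Of 4 other P2Y genes, 3 rose and the pyrimidine receptor gene P2ry4, with 1 count in all, was not tested. P2ry14, the receptor gene for UDP-glucose that also lies within Med12l, had 29.1 and 31.0 CPM in ALLO, against 0.819 and 0.483 CPM in ISO. Its groups were far apart, at 45.6-fold (edgeR adjusted p = 0.00248). P2ry10, an X-linked receptor gene for lysophosphatidylserine, had 42.1 and 44.0 CPM in ALLO, against 1.23 and 0.121 CPM in ISO. It was 62.8-fold higher (edgeR adjusted p = 0.00785) and 34.9-fold without ISO replicate 2. Without ISO replicate 1 the fitted fold of 339 rests on the 2 counts in ISO replicate 2. Its X-linked relative P2ry10b was 11.9-fold higher (edgeR adjusted p = 0.0127) and 23.2-fold without ISO replicate 1. Counts of this related pair are uncertain, since the treatment of reads that match both is not stated.

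For adenosine receptors, 2 of 3 other genes rose. Adora2b, the low-affinity A2B receptor gene, had 6.58 and 8.72 CPM in ALLO, against 1.05 and 0.483 CPM in ISO, and rose 9.87-fold (edgeR adjusted p = 0.0118), 15.6-fold without ISO replicate 1. Adora3 had 57 and 45 counts in ALLO, against 4 and 2 counts in ISO. It passed as higher (edgeR adjusted p = 0.0172), not so without ALLO replicate 1 (edgeR adjusted p = 0.0692), and 20.9% of its exonic bases are shared with Tmigd3. Adora1, the A1 receptor gene, had 4.01 and 3.13 CPM in ALLO against 2.87 and 8.27 CPM in ISO and did not pass (edgeR adjusted p = 0.457), and 20.1% of its exonic bases lie under the antisense gene Mybph.

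Among 12 other genes of nucleotide-cleaving enzymes, 4 rose, 1 fell, 5 did not pass and 2 were not tested. Nt5e, the CD73 gene, had 20.6 and 17.0 CPM in ALLO, against 14.6 and 8.99 CPM in ISO. The groups did not overlap, but the change of 0.67 ± 0.33 did not pass (edgeR adjusted p = 0.182). The ratio of Entpd1 to Nt5e in CPM was 8.76 and 10.3 in ALLO and 25.2 and 47.2 in ISO. Acpp, an acid phosphatase gene whose membrane form cuts AMP in mouse sensory neurons, rose 3.33-fold (edgeR adjusted p = 0.0129). Entpd2, the gene of an ATP-preferring relative of CD39, had 16.8 and 16.3 CPM in ALLO, against 33.7 and 32.3 CPM in ISO. It fell (log2 change -0.99 ± 0.20, edgeR adjusted p = 0.0207), which did not pass with ISO replicate 1 left out (edgeR adjusted p = 0.0848) or with ISO replicate 2 left out (edgeR adjusted p = 0.0744), and 28.8% of its exonic bases are shared with Npdc1. Entpd3 had 20 and 28 counts in ALLO and was at 0 in ISO. Against a floor of 6 counts per library this is at least 3.22-fold higher. Its call (edgeR adjusted p = 0.0207) did not hold when ALLO replicate 1 or ALLO replicate 2 was left out (edgeR adjusted p = 0.0847 and 0.0886). Entpd6 and Entpd7 also rose, 2.92- and 2.23-fold (edgeR adjusted p = 0.0269 and 0.0409), and each lost its call when any of 3 libraries was left out, kept without ISO replicate 1 for Entpd6 and without ALLO replicate 2 for Entpd7. Neither passed when tested against 1.5-fold (edgeR adjusted p = 0.0523 for Entpd6 and 0.107 for Entpd7). Entpd4 and Entpd8 had at most 2 counts in a library. Gene models on the opposite strand cover 30.4% of the exonic bases of Entpd4, and the treatment of multi-mapping reads is not stated, so its counts are uncertain.

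Genes of adenosine uptake and breakdown gave 4 higher and 1 lower of 8 tested, and Slc29a4 and Slc28a3, with at most 40 counts in a library, were not tested. Slc29a3, a lysosomal nucleoside transporter gene, had 144 and 142 CPM in ALLO, against 23.6 and 26.1 CPM in ISO, and rose 5.75-fold (edgeR adjusted p = 0.00284). Dpp4, whose CD26 protein tethers adenosine deaminase in humans, rose 18.5-fold (edgeR adjusted p = 0.0034). Pnp, the gene of purine nucleoside phosphorylase, rose 3.53-fold (edgeR adjusted p = 0.00561), with 18.0% of its exonic bases shared with other gene models. The gene that fell was Slc29a1, of the plasma membrane nucleoside transporter ENT1, at 45.2 and 75.9 CPM in ALLO against 125 and 138 CPM in ISO (edgeR adjusted p = 0.0398), which did not hold when ALLO replicate 1 or ISO replicate 2 was left out (edgeR adjusted p = 0.0611 and 0.0652), when scaled by library size alone (edgeR adjusted p = 0.0772) or when tested against 1.5-fold (edgeR adjusted p = 0.107).

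Of 9 ATP release genes, 3 were higher, 3 lower and 1 not passed, and Panx2 and Calhm1, with at most 8 counts in a library, were not tested. Calls of 2 of these genes were lost whichever library was left out: Gjb2, a connexin gene with 16 and 12 counts in ALLO and none in ISO (edgeR adjusted p = 0.0324), and Ano6, a lipid scramblase gene at 136 and 135 CPM in ALLO against 216 and 245 CPM in ISO (edgeR adjusted p = 0.0366). Ano6 did not pass when scaled by library size alone (edgeR adjusted p = 0.0872), nor Gjb2 with no filter on low counts (edgeR adjusted p = 0.0654). Lrrc8a, a volume-regulated anion channel gene called lower (edgeR adjusted p = 0.0206), shares 66.2% of its exonic bases with gene models on the same strand, so its counts are uncertain. Panx1, the pannexin channel gene, had 28.8 and 34.5 CPM in ALLO, against 3.68 and 1.09 CPM in ISO. It rose 13.2-fold (edgeR adjusted p = 0.0112), 28.9-fold without ISO replicate 1 and 8.57-fold without ISO replicate 2. Slc17a9, the gene of the vesicular nucleotide transporter, rose 9.6-fold (edgeR adjusted p = 0.0129), 15.5-fold without ISO replicate 1. Gja1, the connexin 43 gene, had 55.3 and 50.8 CPM in ALLO, against 182 and 225 CPM in ISO, and was 3.84-fold lower (edgeR adjusted p = 0.00498).

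Downstream of P2X7, 5 of 7 genes of the NLRP3 inflammasome list rose and 2 did not pass, where 33.1% of all genes tested passed. Nlrp3 had 27.2 and 43 CPM in ALLO, against 5.67 and 1.45 CPM in ISO, and rose 9.83-fold (edgeR adjusted p = 0.0213). Without ALLO replicate 2 it was 7.76-fold higher and its call was lost. Gsdmd, whose product forms the pores of pyroptosis, had 104 and 109 CPM in ALLO, against 15.8 and 15.2 CPM in ISO, and was 6.86-fold higher (edgeR adjusted p = 0.00216). Casp1, the inflammasome caspase gene, rose 9.62-fold (edgeR adjusted p = 0.00327), and Pycard, the adaptor gene, rose 8.59-fold (edgeR adjusted p = 0.00917) and 14.2-fold without ISO replicate 1. Il1b, the gene of interleukin-1 beta, had 100 and 105 CPM in ALLO, against 12.1 and 0.664 CPM in ISO, where the libraries lay far apart, and did not pass (edgeR adjusted p = 0.0508). It passed under 6 other choices of scaling, filter or test, halved counts included (edgeR, DESeq2 or limma adjusted p = 0.00932 to 0.0456). It did not pass when scaled by upper quartile, when genes were filtered by their mean instead, or when tested against 1.5-fold (edgeR adjusted p = 0.0515, 0.0628 and 0.0687). The log2 change of Il1b was 4.07 without ALLO replicate 1, 4.00 without ALLO replicate 2 and 3.08 without ISO replicate 2. Without ISO replicate 1 the fitted log2 change of 7.25 rests on the 11 counts in ISO replicate 2. Nek7, an NLRP3 partner gene, had 125 and 106 CPM in ALLO against 107 and 124 CPM in ISO (edgeR adjusted p = 0.998). Of Pycard's exonic bases 12.8% overlap a gene model on the opposite strand.

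**Figure D4:**
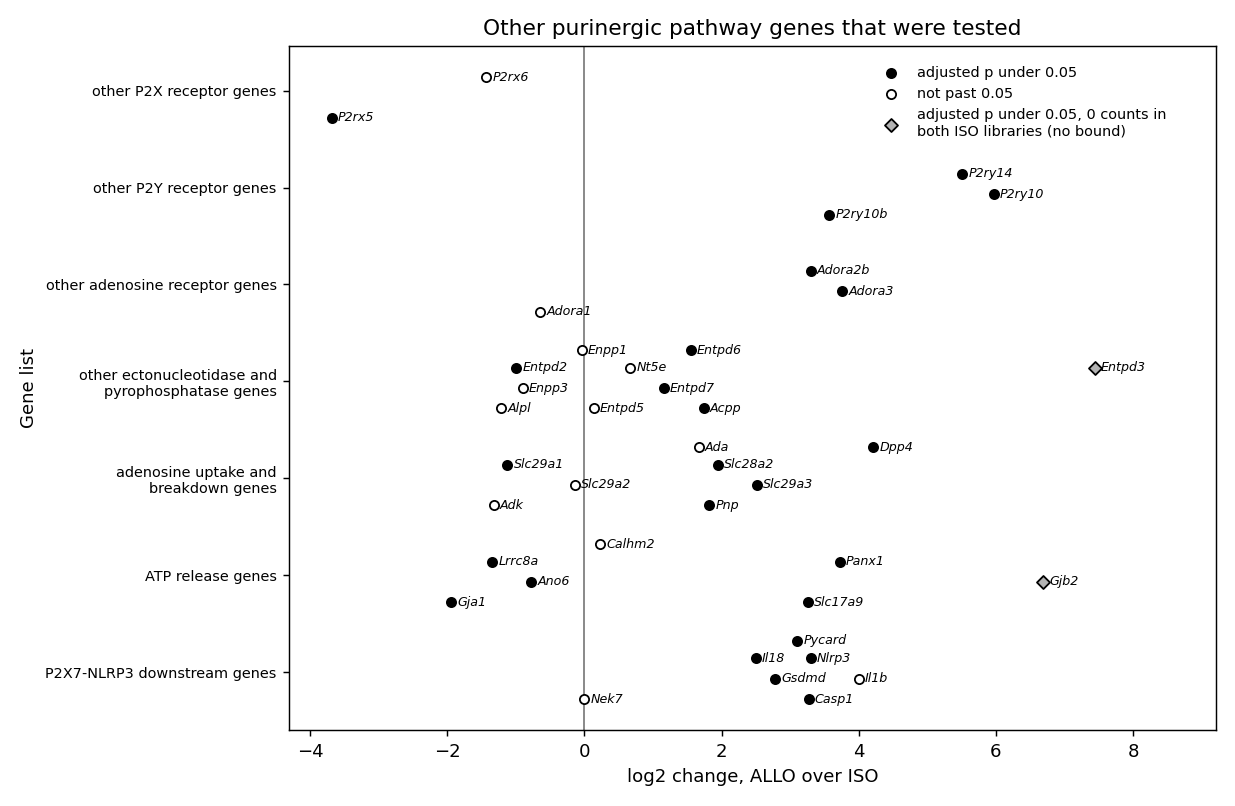
Log2 change of the 40 other purinergic genes tested, ALLO over ISO, by gene list; filled circles passed an adjusted p of 0.05 and diamonds mark genes with 0 counts in both ISO libraries. P2ry10 and P2ry14 lie at 5.97 and 5.51, P2rx5 at -3.68, and the ATP release genes fall on both sides of 0.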

How the data were processed

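Whole aortic graft RNA was sequenced from 2 ALLO and 2 ISO libraries, grouped and numbered by sample title. Per the labels' protocols, Trizol RNA was digested with DNase I, ribosomal RNA was removed, and adapter-ligated cDNA was amplified. The authors deposited raw counts per gene, with gene lengths. The submitters' processing notes list mm10, Subread 1.6.4, featureCounts, and R 4.0.3 with DESeq2 1.30.0. Aligner, annotation release, strand setting and treatment of multi-mapping reads: not stated. Symbols were taken from GENCODE M21 for 54723 of 54752 IDs. Among genes with 1 to 20 counts, 68.0% to 74.6% had an even count, as when both mates of a pair are counted, so the floor was 6 counts (3 read pairs) per library.

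Genes were kept by filterByExpr (minimum count 10) and scaled by TMM. The two-sided quasi-likelihood test of edgeR 4.0.16 had group as its only term, and p was adjusted over all 16498 genes (Benjamini-Hochberg, 0.05). The standard error is the size of the log2 change over the root of F. TPM came from counts and deposited lengths. Replicates differed beyond sampling noise (chi-square over degrees of freedom 139 in ALLO and 41.6 in ISO). The labels give no pairing, so same-numbered libraries were not paired. Their deviations correlated weakly across genes (r = 0.097), which with 2 libraries per group cannot show whether they were paired. Named were the 10 genes, all receptor genes of the lists, Nt5e, genes not tested, and up to 3 called genes with the smallest adjusted p per list. Entpd6, Entpd7, Slc29a1, Nlrp3, Il1b, Nek7, Ano6, Gjb2, Lrrc8a, Ada and Adk were named after their values were seen. The 10 genes, lists and alternatives were chosen with earlier results of these data known. Motifs were searched in the 250 bases before RefSeq starts on both strands, and the form of the NF-kappaB consensus was changed after a first search. The test was tried on simulated data. R 4.3.3, limma 3.58.1, DESeq2 1.42.0, Python 3.11.15, pandas 2.3.3 and matplotlib 3.10.9 were used. Alternatives were other scalings, filters and tests, a replicate block, halved counts and each library left out.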

Additional observations from a re-analysis of the deposited data

How the results depend on the processing

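With 2 libraries per group, leaving out 1 library changed the calls of P2ry6, Entpd1 and Adora2a. Halving all counts left the number called among the 10 at 7, and P2ry1, the gene with the fewest counts, at 1.19 (edgeR adjusted p = 0.16). Outside the settings that leave out a library, 99 of 100 values of the 10 genes kept their direction and their side of the threshold. The exception was P2ry6 tested against 1.5-fold (log2 change 1.45, edgeR adjusted p = 0.0551). With the replicate block the count was again 7 of 10, and P2ry2 changed by -2.67 (edgeR adjusted p = 0.0104). That block called 4873 genes in all and 27 of the other purinergic genes. Under it Entpd7, Gjb2 and Ano6 did not pass (edgeR adjusted p = 0.0527, 0.0781 and 0.0758), and Il1b, Ada and Adk did (edgeR adjusted p = 0.0155, 0.0134 and 0.04). Without the block Ada, 3.19-fold higher, and Adk, 2.49-fold lower, did not pass (edgeR adjusted p = 0.0509 each). Both passed with no filter on low counts, with halved counts, and by DESeq2 or limma. Neither passed with genes filtered by their mean or when tested against 1.5-fold. Numbers called among the 10 were 6 to 8 when a library was left out, among the other purinergic genes 22 to 26, and among all genes 3666 to 4749. Without a library, log2 changes were 1.10 to 1.78 for P2ry6, -1.26 to -1.05 for Entpd1 and 0.64 to 2.12 for Adora2a. Where a library was left out, its group's remaining library was assumed to vary like the other group. Scaling by library size alone moved the median of all genes to 0.22 and the share of higher calls from 55.4% to 65.5%, and called 5 of the 10 higher and 2 lower, as before. Without division by gene length, Entpd1 held 30.8% of the summed level in ALLO and 66.7% in ISO. On an RPKM scale with TMM factors, added after the data had been seen, 5 neighbouring pairs in the ALLO order overlapped, against 7 by TPM, and 2 in the ISO order, against 3. Entpd7, Ano6 and Gjb2 lost their calls under 5, 7 and 6 of the settings tried.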
